A study of Homo sapiens with 6 samples.

Results

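The MHC class I antigen presentation genes were read out in BT549 cells after knockdown of BNC2, a gene for a zinc-finger protein. The 9 genes, taken by symbol from a table of 23346 genes, were HLA-B, HLA-C, HLA-E, HLA-F, B2M, TAP1, TAP2, TAPBP and NLRC5. BT549 is an established breast cancer cell line that is labelled as mesenchymal and wild type. Poly(A) RNA was sequenced from 3 libraries of cells given negative control (NC) siRNA and from 3 libraries of cells given BNC2 siRNA, an equal mix of 3 siRNAs. Both were transfected at 20 nM, and RNA was collected 6 d later, so the comparison asks which transcripts differ at that single time after the knockdown in 1 cell line. No surface protein was measured.

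Class I molecules display peptides from inside the cell to cytotoxic T cells, and natural killer cells read their levels. Each consists of a heavy chain, encoded by the HLA genes, and the invariant light chain beta-2-microglobulin. Proteasomes cut proteins into peptides, the TAP transporter carries these into the endoplasmic reticulum, and tapasin holds empty heavy chains beside it until a peptide binds. NLRC5 is the transactivator of class I genes, and interferon-gamma raises most genes of the pathway, in part through IRF1. Loss of the pathway is well known in tumours as a way to escape T cells.

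Upstream sequences of some of the genes are given first, as a description whose part in the results was not tested. They are the 250 bases before the start of each gene in RefSeq (GRCh38.p14), on the strand of the gene, so they are reference sequence and not the alleles of BT549. Of the 9 genes and PSMB9, the neighbour of TAP1, 8 were matched in the RefSeq table, and HLA-E and NLRC5 were not. Capitals mark, on either strand, matches to an interferon response element-like motif (GAAA, any 2 bases, GAAA), to the kappaB-like motifs GGGNNTTCC and GGNNTTTCC, and to CCAAT, and such matches may overlap. HLA-B (chr6:31357180-31357429, minus strand) and HLA-C (chr6:31272093-31272342, minus strand) are neighbouring heavy chain genes, B2M (chr15:44711267-44711516, plus strand) encodes the light chain, and TAP1 (chr6:32853705-32853954, minus strand) and PSMB9 (chr6:32853942-32854191, plus strand) are transcribed away from each other.
HLA-B: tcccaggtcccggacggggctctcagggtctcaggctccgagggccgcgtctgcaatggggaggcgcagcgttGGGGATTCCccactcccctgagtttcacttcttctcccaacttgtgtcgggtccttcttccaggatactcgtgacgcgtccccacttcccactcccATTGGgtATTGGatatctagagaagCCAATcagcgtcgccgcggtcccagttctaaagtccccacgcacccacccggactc
HLA-C: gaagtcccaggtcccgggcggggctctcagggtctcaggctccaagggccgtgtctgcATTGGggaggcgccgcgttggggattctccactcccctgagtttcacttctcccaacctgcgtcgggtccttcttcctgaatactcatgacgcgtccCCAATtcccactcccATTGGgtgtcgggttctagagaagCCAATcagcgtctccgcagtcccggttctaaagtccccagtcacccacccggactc
B2M: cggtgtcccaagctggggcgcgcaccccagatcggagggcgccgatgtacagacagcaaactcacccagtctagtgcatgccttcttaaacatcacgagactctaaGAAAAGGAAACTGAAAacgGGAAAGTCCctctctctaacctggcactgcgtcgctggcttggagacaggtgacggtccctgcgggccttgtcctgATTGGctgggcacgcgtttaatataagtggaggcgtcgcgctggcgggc
TAP1: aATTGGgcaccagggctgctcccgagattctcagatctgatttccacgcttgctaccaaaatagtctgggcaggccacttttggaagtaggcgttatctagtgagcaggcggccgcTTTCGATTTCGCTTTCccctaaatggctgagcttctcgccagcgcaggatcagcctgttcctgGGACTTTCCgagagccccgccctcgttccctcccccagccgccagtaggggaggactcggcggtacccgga
PSMB9: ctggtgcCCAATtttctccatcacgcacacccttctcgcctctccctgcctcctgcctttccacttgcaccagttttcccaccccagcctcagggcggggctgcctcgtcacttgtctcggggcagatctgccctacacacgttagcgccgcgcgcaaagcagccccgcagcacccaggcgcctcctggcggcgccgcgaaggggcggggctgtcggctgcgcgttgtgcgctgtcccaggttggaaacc

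The windows of HLA-B and HLA-C were identical in 226 of 254 alignment columns (89.0%). The letters GGGNNTTCC were found in the HLA-B window, at positions -177 to -169 from the gene start, and not in the HLA-C window. Neither window held the exact interferon response element-like letters. Related sites with other letters were not searched for, so these windows may still hold such an element. B2M had 2 overlapping matches to these letters from -144 to -129 and a kappaB-like match from -125 to -117. TAP1 also had 2 overlapping matches, from -134 to -119 and a kappaB-like match from -71 to -63. The starts of TAP1 and PSMB9 had 487 bases between them, and their windows overlapped in 13 bases. The PSMB9 window held neither kind of match, and nor did a further RefSeq window of TAP1, which is not shown. The matches in the TAP1 window shown lie between these starts, so they are also upstream of PSMB9, beyond the far end of its window. Their absence from the PSMB9 window therefore does not set these neighbours apart. The TAPBP window also held kappaB-like letters. The HLA-F window, not shown because the gene was barely detected, held an interferon response element-like match from -156 to -147. For TAP2 and TAPBP shorter stretches are shown, in which the capitals again mark these letters, at -66 to -41 for TAP2 and at -28 to -1 for TAPBP.
TAP2: ggggaagcGAAAGCGAAAgctgcccg
TAPBP: ctttggagGAAAGTGAAAGTGAAAggag

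Of 35116 RefSeq promoter windows of the same length, 3.02% held the interferon response element-like letters, 5.78% GGGNNTTCC, 5.48% GGNNTTTCC and 32.0% CCAAT. A match describes the letters only, a site with other letters is missed, and binding was not measured.

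The 6 libraries held 16093978 to 18246254 counts each, and 37.7% to 41.1% of all reads of a library were counted on no gene, including those that map to several places. BNC2 itself, measured as CPM (counts scaled to the size of the library, here with TMM factors), stood at 65.6, 51.5 and 58.6 CPM with NC siRNA and at 35.5, 36.6 and 41.6 CPM with BNC2 siRNA (log2 fold change -0.63 with a standard error, SE, of 0.09 and an adjusted p of 8.2e-06 in edgeR's quasi-likelihood test with Benjamini-Hochberg adjustment over 12186 genes, used throughout). A gene counts as called at an adjusted p of at most 0.05, and 72.9% of all genes tested were called in these libraries, 36.6% higher and 36.2% lower after knockdown. A call alone therefore sets no gene apart here. Of the mesenchymal markers VIM, FN1, CDH2, ZEB1 and SPARC, all 5 were expressed, with a summed level of 6367.4 to 6460.8 CPM with NC siRNA and 6501.3 to 6754.5 CPM with BNC2 siRNA. Each of them moved with the groups: CDH2 (log2 fold change 1.36), FN1 (0.39), ZEB1 (0.34) and VIM (0.18) were called higher and SPARC (-0.52) lower. VIM lost its call with total counts only and without NC siRNA replicate 2. The part of these 5 markers in the results below was not tested. The epithelial markers CDH1, EPCAM, ESRP1 and GRHL2 had at most 3 counts in every library.

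After BNC2 knockdown, 6 of the 8 class I pathway genes that could be tested were lower, TAPBP was higher and TAP1 was not called. Over all genes tested, 36.2% were called lower and 36.6% higher. Of all 9 genes, HLA-F was the one that did not pass the filter on low counts. HLA-B, NLRC5 and B2M fell most, to 27.1%, 38.0% and 47.7% of the control level. These 3 were called and at least 2-fold lower, as were 10.1% of all genes tested. In all 8 genes tested, TAP1 included, the knockdown libraries lay wholly outside the range of the control libraries, which also held for 74.9% of all genes. The median log2 fold change of the 8 was -0.52, against 0.0014 over all genes tested. In bulk RNA, fewer cells that express a gene and less RNA per cell cannot be told apart.

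**Figure D1:**
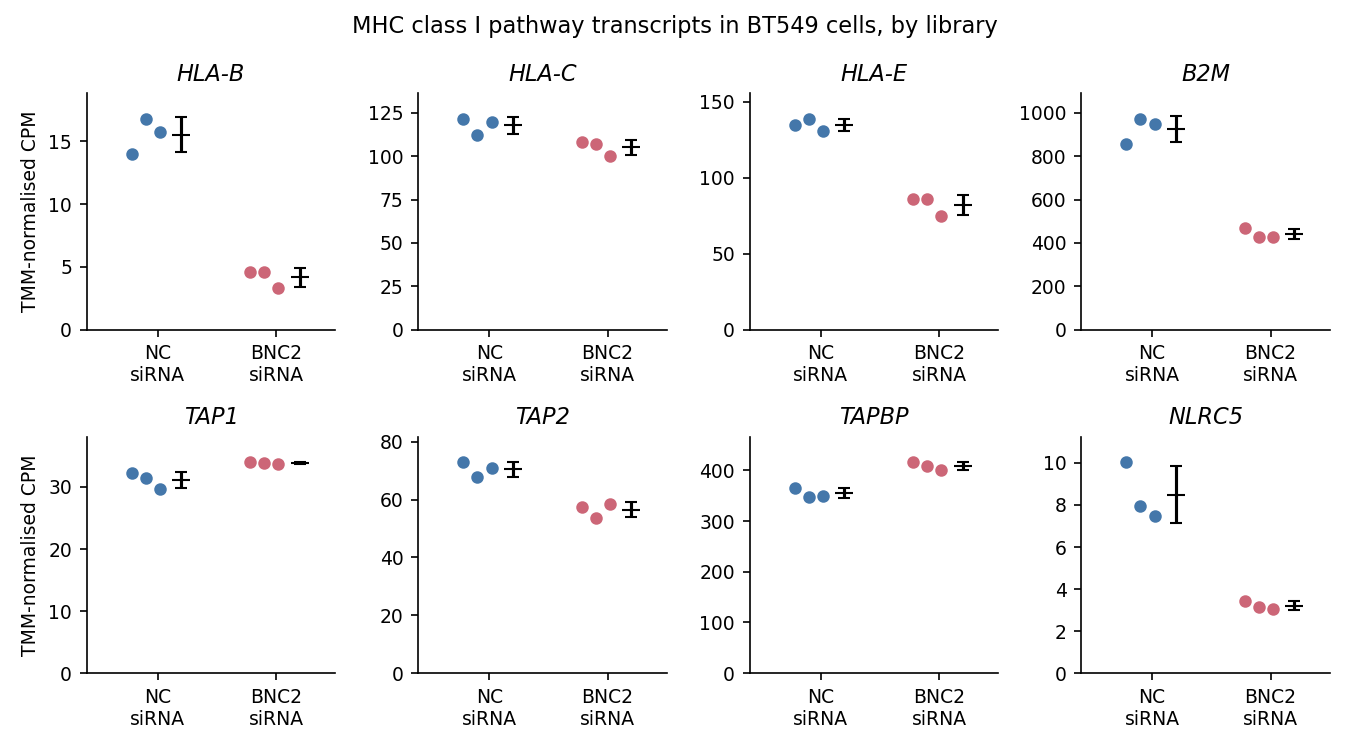
TMM-normalised CPM of the 8 class I pathway genes tested, on axes that start at 0. Points are single libraries (3 NC siRNA in blue, 3 BNC2 siRNA in red) and black bars give mean ± SD. The BNC2 siRNA libraries lie below the NC siRNA libraries in 6 genes and above them in TAP1 and TAPBP.

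Among the heavy chains, HLA-B showed the steepest fall. HLA-B presents peptides to T cells and lies on chromosome 6 of GRCh37 from 31321649 to 31334844. It stood at 14.03, 16.80 and 15.71 CPM with NC siRNA and at 4.59, 4.63 and 3.31 CPM with BNC2 siRNA, which rests on 249 to 300 and on 52 to 82 reads. Every control library was above every knockdown library, by a gap far wider than the spread within either group. The log2 fold change was -1.88 (SE 0.14, adjusted p = 3.7e-09), a 3.69-fold fall.

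HLA-C, the neighbouring heavy chain (chromosome 6, 31236526 to 31239907) and a main ligand of killer-cell receptors, changed little. Its levels were 121.5, 112.4 and 119.4 CPM with NC siRNA and 108.1, 107.1 and 100.2 CPM with BNC2 siRNA. The groups were close to each other but did not overlap. The log2 fold change was -0.16 (SE 0.06, adjusted p = 0.022). The call was lost under 4 of the 14 other settings, among them without BNC2 siRNA replicate 2 (-0.17, adjusted p = 0.053), without BNC2 siRNA replicate 3 (-0.13, adjusted p = 0.091) and without the filter on low counts (-0.13, adjusted p = 0.080).

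HLA-E, which presents leader peptides of other class I chains to natural killer cells, lies elsewhere on chromosome 6 (30457286 to 30461971). It had 134.9, 138.8 and 131.1 CPM with NC siRNA and 86.2, 85.9 and 74.6 CPM with BNC2 siRNA. All 3 knockdown libraries lay well below the controls, and BNC2 siRNA replicate 3 was the lowest. The log2 fold change was -0.71 (SE 0.07, adjusted p = 4.8e-08). HLA-F, a less widely expressed chain (chromosome 6, 29690552 to 29706305), had 1 read in NC siRNA replicate 1, 1 read in BNC2 siRNA replicate 2 and none elsewhere. It could not be compared at this depth, since a count of 0 allows up to 3 counts.

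HLA-B and HLA-C were also set against each other within each library. The log2 ratio of HLA-B to HLA-C counts was -2.93 ± 0.19 (SD, n = 3) with NC siRNA and -4.67 ± 0.22 (SD, n = 3) with BNC2 siRNA. The ratio was lower in every knockdown library, with a mean difference of -1.74 on the log2 scale. The pair was chosen for this difference, so the ratio is a description with no test. The counts hold reads that map to a single place on the hg19 reference. Of the 75-base windows of the HLA-B transcript none was found in another gene's transcript, and of those of HLA-C 1.98% were. How the HLA alleles of BT549 align to the reference was not tested.

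B2M, the light chain that pairs with class I heavy chains, lies on chromosome 15 from 45003556 to 45011049. It was the most abundant of the 9 genes and had 855.7, 972.5 and 946.6 CPM with NC siRNA. With BNC2 siRNA it had 468.9, 426.3 and 427.2 CPM. The lowest control library was well above the highest knockdown library. The log2 fold change was -1.07 (SE 0.06, adjusted p = 1.8e-10), and it lay between -1.15 and -1.04 under the 14 other settings tried.

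The genes for the transporter and for tapasin moved less than HLA-B and B2M. TAP1 (chromosome 6, 32812986 to 32821593) and TAP2 (32789610 to 32806516) encode the subunits of the peptide transporter. TAP1 had 32.3, 31.4 and 29.7 CPM with NC siRNA and 34.0, 33.9 and 33.8 CPM with BNC2 siRNA, with a log2 fold change of 0.12 (SE 0.07, adjusted p = 0.154). The knockdown libraries lay just above the controls, but the difference did not pass the test. TAP2 had 72.9, 67.7 and 70.9 CPM with NC siRNA and 57.6, 53.7 and 58.3 CPM with BNC2 siRNA. All 3 knockdown libraries were below the controls, with a log2 fold change of -0.32 (SE 0.07, adjusted p = 0.00032). In GENCODE, a read-through gene runs over the whole of TAP2 on the same strand and shares 1949 of the 5569 windows of 75 bases of the TAP2 transcript, and its part in the TAP2 counts was not tested.

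TAPBP encodes tapasin, the chaperone that bridges the heavy chain and the transporter (chromosome 6, 33267471 to 33282061). It had 365.6, 348.3 and 349.9 CPM with NC siRNA and 415.8, 407.7 and 399.9 CPM with BNC2 siRNA. It was the single member that rose, and each knockdown library was above each control. The log2 fold change was 0.20 (SE 0.05, adjusted p = 0.0025).

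NLRC5, the transactivator, lies on chromosome 16 from 57023397 to 57117443. It was lowly expressed, at 10.0, 7.95 and 7.46 CPM with NC siRNA (124 to 178 reads), and fell to 3.43, 3.16 and 3.06 CPM with BNC2 siRNA (48 to 59 reads). NC siRNA replicate 1 was the highest library, and the knockdown libraries were close to each other. The log2 fold change was -1.40 (SE 0.16, adjusted p = 6.8e-07), a 2.64-fold fall, and -1.28 without NC siRNA replicate 1.

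Divided by the length of the transcript, the levels were also set side by side between genes. With NC siRNA, B2M stood at 980.8 ± 65.1 CPM per kb (SD, n = 3), TAPBP at 102.8 ± 2.77, HLA-C at 76.4 ± 3.10 and HLA-E at 53.0 ± 1.51 CPM per kb. TAP2 and TAP1 followed at 12.5 ± 0.47 and 11.6 ± 0.48 CPM per kb, and these neighbours overlapped between libraries. HLA-B stood at 10.1 ± 0.91 and NLRC5 at 1.25 ± 0.20 CPM per kb. With BNC2 siRNA the order was the same except that TAP1 (12.6 ± 0.042 CPM per kb) stood above TAP2 (10.0 ± 0.44 CPM per kb). HLA-B then had 2.72 ± 0.49 CPM per kb, and B2M, at 467.5 ± 25.8 CPM per kb, was still the highest of the genes. These levels rest on 1 annotated transcript per gene and on reads that map to a single place. The part of the HLA alleles of BT549 and of the read-through gene over TAP2 in this order was not tested.

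**Figure D2:**
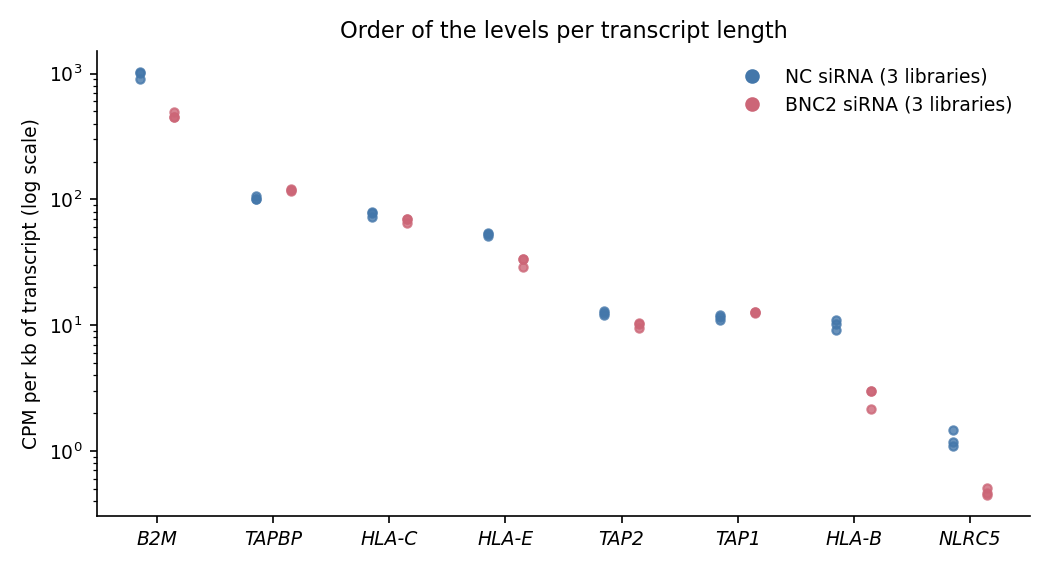
CPM per kb of the annotated transcript (log axis) in the 8 class I pathway genes tested. Points are single libraries, 3 of NC siRNA (blue) and 3 of BNC2 siRNA (red). B2M is highest in both groups, and the means of TAP1 and TAP2, whose NC siRNA libraries overlap, change places.

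The immunoproteasome is the form of the proteasome that interferon induces, and its catalytic subunits are PSMB8, PSMB9 and PSMB10. Of the 7 genes listed for it, its assembly and its activators, 1 rose, 5 fell and PSMB8 was not called. Over all genes tested 72.9% were called, and the median log2 change of the list was -0.37. PSMB9 had 14.7, 16.5 and 17.8 CPM with NC siRNA and 4.94, 5.87 and 4.33 CPM with BNC2 siRNA, a clear separation of the groups (log2 fold change -1.69, SE 0.13, adjusted p = 7.3e-09). PSMB8, beside them in the class II region of chromosome 6, had 10.7, 12.6 and 10.5 CPM with NC siRNA and 10.0, 12.5 and 11.5 CPM with BNC2 siRNA. These overlapped (log2 fold change 0.01, SE 0.12, adjusted p = 0.968), and the sign of this value turned under 7 other settings. PSMB10 fell from 16.3 ± 1.69 to 10.6 ± 0.98 CPM (SD, n = 3; log2 fold change -0.62, adjusted p = 0.00012). PSME1, a subunit of the PA28 activator, rose by 0.36 (adjusted p = 0.00054), whereas the other subunit, PSME2, fell (log2 fold change -0.37, adjusted p = 7.7e-05).

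PSMB9 was set against its neighbours within each library. Its log2 ratio to TAP1 was -0.93 ± 0.20 (SD, n = 3) with NC siRNA and -2.76 ± 0.22 (SD, n = 3) with BNC2 siRNA. Its log2 ratio to PSMB8 was 0.54 ± 0.20 (SD, n = 3) and -1.17 ± 0.21 (SD, n = 3), so that PSMB9 went from above PSMB8 to below it in counts. These pairs were also chosen after their values were seen, and their ratios are descriptions with no test. GENCODE places PSMB8-AS1 on the strand of PSMB9, with an overlap of 2365 bases, and PSMB9 and TAP1 overlap on opposite strands. With counts of both strands the log2 fold change of PSMB9 was -1.68.

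**Figure D3:**
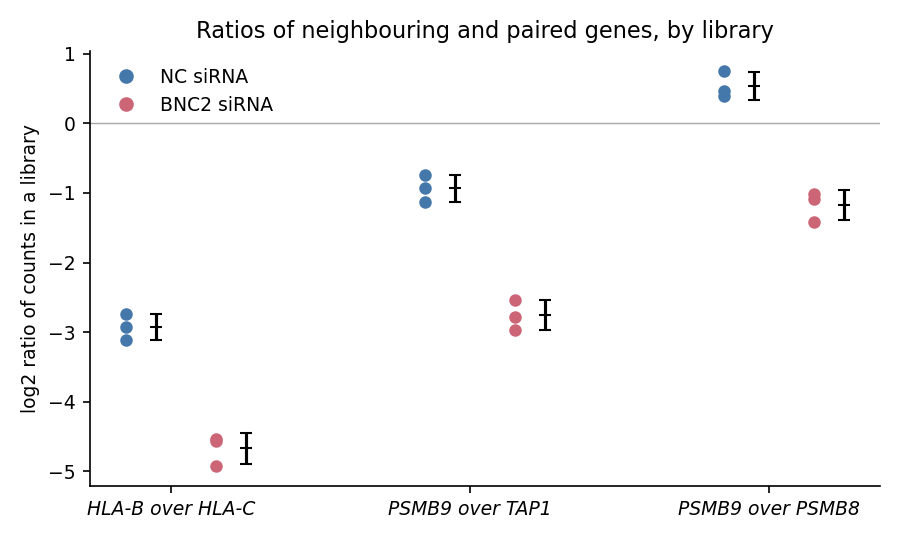
Log2 ratio of the counts of paired genes in each library, 3 NC siRNA (blue) and 3 BNC2 siRNA (red), with mean ± SD in black. HLA-B lies lower against HLA-C, and PSMB9 lower against TAP1 and PSMB8, in each BNC2 siRNA library.

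The constitutive catalytic subunits, which the immunosubunits replace, also differed among themselves. PSMB7, the counterpart of PSMB10, fell from 544.7 ± 4.56 to 185.0 ± 16.0 CPM (SD, n = 3), and its log2 fold change was -1.56 (SE 0.06, adjusted p = 2.4e-12). PSMB6, the counterpart of PSMB9, fell by 0.24 on the log2 scale (adjusted p = 0.0027). PSMB5, the counterpart of PSMB8, was not called (log2 fold change -0.06, adjusted p = 0.494). The list held 3 genes, of which 2 fell, with a median of -0.24, beside 36.2% of all genes tested that fell.

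The partners that load and trim peptides moved both ways. Of 13 tested, 5 rose, 2 fell and 6 were not called, where 72.9% of all genes tested were called. The median log2 change of the list was 0.09. CALR, the chaperone calreticulin of the loading complex, rose from 1943.2 ± 135.2 to 2514.5 ± 83.6 CPM (SD, n = 3; log2 fold change 0.37, adjusted p = 3.5e-05). CANX, HSPA5 and BCAP31 rose by 0.24, 0.18 and 0.22, of which HSPA5 and BCAP31 were not called with total counts only (adjusted p = 0.097 and 0.053), and SEC61G, a subunit of the translocon, by 0.62 (adjusted p = 7.6e-08). PDIA3, the disulfide isomerase bound to tapasin, was not called (0.05, adjusted p = 0.481), nor was the tapasin homologue TAPBPL (-0.52, adjusted p = 0.184). At TAPBPL, 58.8% of the reads of both strands lay on the opposite strand, at 2.36 CPM with NC siRNA and 0.92 CPM with BNC2 siRNA. With counts of both strands its log2 fold change was -0.735 (adjusted p = 0.055), and the part of the opposite-strand reads was not tested. The aminopeptidases that trim peptides differed from each other. ERAP2 stood at 4.11, 4.20 and 5.00 CPM with NC siRNA and at 1.92, 1.24 and 1.46 CPM with BNC2 siRNA (log2 fold change -1.52, SE 0.21, adjusted p = 6.1e-06). ERAP1, next to it on chromosome 5, had 54.7 ± 6.57 and 55.1 ± 1.78 CPM (SD, n = 3; log2 fold change 0.01, adjusted p = 0.914), and LNPEP fell (-0.46, adjusted p = 0.00027).

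Of the factors that act on class I promoters, 14 were tested, of which 5 rose, 7 fell and RFX5 and NFYC were not called. Over all genes tested 72.9% were called, and the median log2 change of the list was -0.15. IRF1, the interferon regulatory factor that binds the interferon response element, had 70.8, 72.6 and 70.6 CPM with NC siRNA and 24.4, 27.5 and 23.9 CPM with BNC2 siRNA. The replicates lay close together in each group and far apart between them (log2 fold change -1.49, SE 0.07, adjusted p = 2.1e-11). IRF2 fell by 0.60 and NFKB1, the p105 precursor of the kappaB-binding p50, by 0.64 on the log2 scale (adjusted p = 4.7e-07 and 8.6e-08). Subunits of the RFX complex, on which NLRC5 assembles, were higher or not called: RFXAP and RFXANK rose by 0.57 and 0.55 (adjusted p = 0.00059 and 3.8e-06), and RFX5 was at 79.5 ± 3.15 and 84.7 ± 6.60 CPM (SD, n = 3; log2 fold change 0.09, adjusted p = 0.229).

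Of 14 interferon receptor and JAK-STAT genes, 4 rose, 7 fell and 3 were not called, where 72.9% of all genes tested were called. The median log2 change of the list was -0.11. The number called higher was 2 with total counts only and without NC siRNA replicate 3. The receptor chain IFNGR2 fell from 68.6 ± 1.11 to 38.6 ± 5.60 CPM (SD, n = 3; log2 fold change -0.83, adjusted p = 2.2e-07), while IFNGR1, the ligand-binding chain, was not called (0.13, adjusted p = 0.225). SOCS1, a feedback inhibitor of JAK kinases, had 5.07, 6.27 and 6.32 CPM with NC siRNA and 1.22, 0.96 and 0.70 CPM with BNC2 siRNA (log2 fold change -2.60, SE 0.22, adjusted p = 1.9e-08). SOCS1 passed the filter on low counts through the NC siRNA libraries, which favours a fall, so this value is a description. SOCS3, another such inhibitor, went the other way, from 20.3 ± 3.06 to 40.7 ± 2.23 CPM (log2 fold change 1.00, adjusted p = 9.5e-08). STAT3 rose by 0.33 (adjusted p = 2.5e-05).

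Of the 8 genes listed as other class I and class I-like chains, 6 were tested, of which 1 rose and 4 fell. Over all genes tested 72.9% were called, and the median log2 change of the list was -0.73. PROCR, the endothelial protein C receptor, fell from 6.08 ± 0.51 to 1.42 ± 0.33 CPM (SD, n = 3; log2 fold change -2.11, adjusted p = 6.4e-08). FCGRT, the heavy chain of the neonatal Fc receptor that also pairs with beta-2-microglobulin, fell from 12.5 ± 0.29 to 4.35 ± 0.093 CPM (log2 fold change -1.52, adjusted p = 9.8e-09). HFE, the class I-like protein of iron uptake, rose from 3.88 ± 0.36 to 7.54 ± 1.31 CPM (log2 fold change 0.95, adjusted p = 5.4e-05). Of 8 ligands of NKG2D, an activating receptor of natural killer cells, 4 were tested, and MICB fell (-0.50, adjusted p = 2.2e-06), whereas MICA (0.14, adjusted p = 0.058), ULBP2 (-0.10, adjusted p = 0.614) and ULBP3 (0.04, adjusted p = 0.784) were not called. Of 13 class II genes, 1, HLA-DOB, passed the filter on low counts and was not called (-0.21), and their transactivator CIITA was below it.

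Across these 8 related lists, 61 of 79 genes were tested, of which 16 rose and 27 fell. Of all genes tested, 36.6% rose and 36.2% fell, 72.9% in all, and the lists were not tested as sets.

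**Figure D4:**
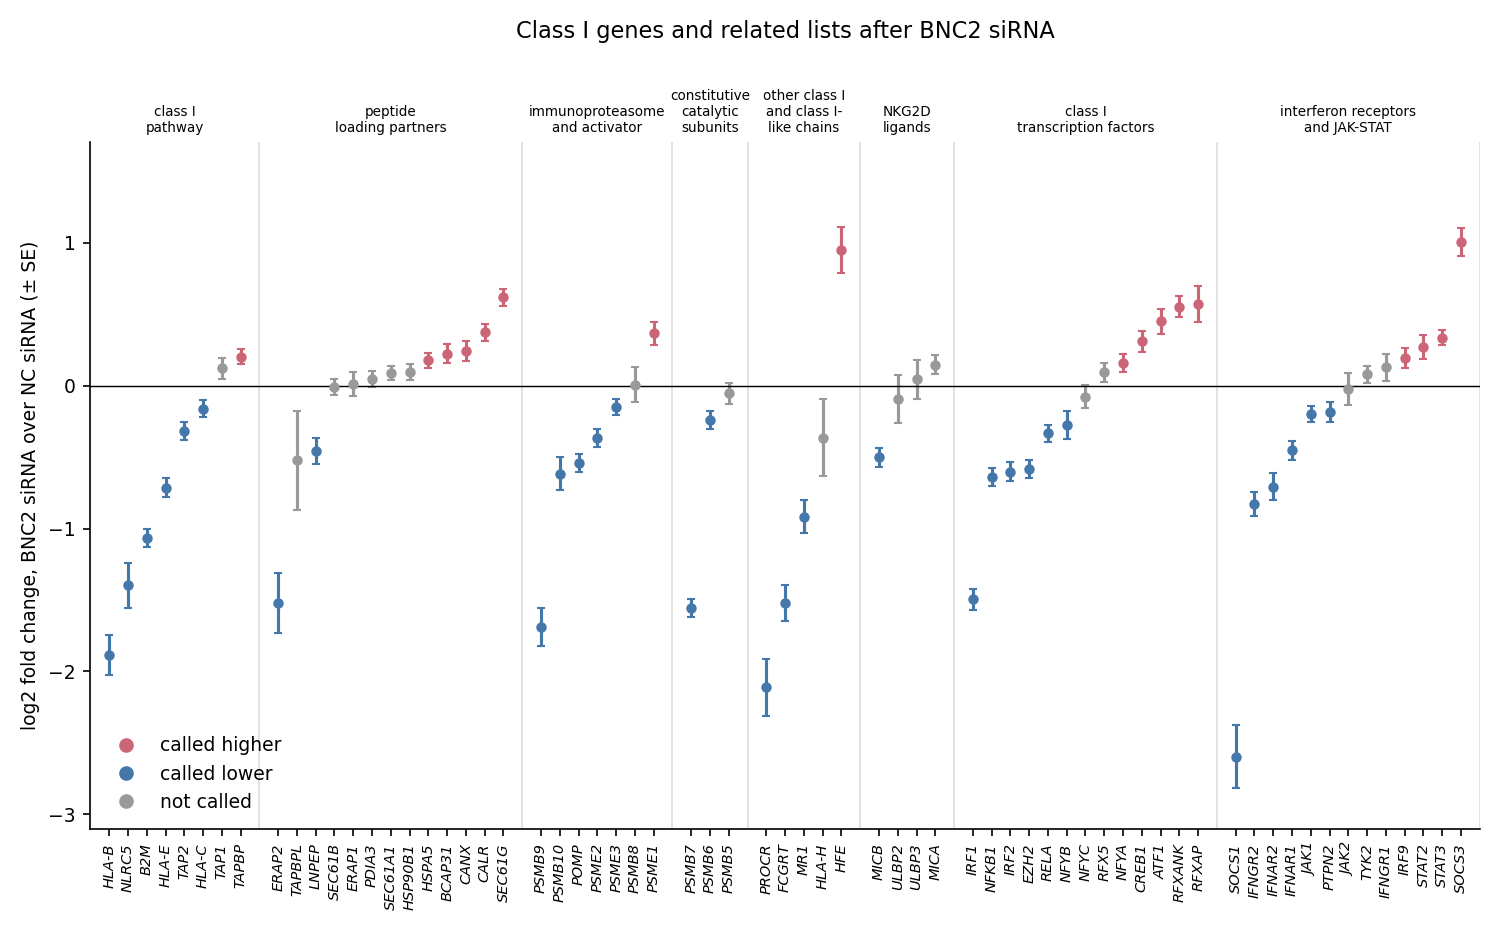
Log2 fold change (BNC2 siRNA over NC siRNA, 3 libraries each) with its standard error for the class I pathway genes and 7 related lists, with some genes of the lists left out. Colours give the call at an adjusted p of at most 0.05. PSMB9, ERAP2, IRF1 and SOCS1 have the lowest values of their lists, but SOCS1 passed the filter on low counts through the NC siRNA libraries.

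Markers of leucocytes, which express class I genes strongly, were read beside these falls. Of 11 markers, 3 were at 0 in all libraries, PTPRC, the pan-leucocyte marker CD45, had 2 to 7 reads per library, and CD3E had 1 read in all. The summed level of the list was 4.82 to 7.10 CPM with NC siRNA and 1.97 to 2.79 CPM with BNC2 siRNA. The 2 markers tested, CD14 (log2 fold change -1.42) and CORO1A (-1.92), were lower, but both passed the filter on low counts through the NC siRNA libraries, which favours falls. CSF1R, which was not tested, had 1 to 3 reads with NC siRNA and 7 to 11 reads with BNC2 siRNA. The endothelial markers PECAM1, VWF, CDH5 and TEK summed to 0.62 to 1.40 CPM and 0.19 to 0.87 CPM. The part of these markers in the falls was not tested. Reads on the strand opposite to genes also moved with the groups, at 2.09% to 2.14% of gene reads with NC siRNA and 1.59% to 1.86% with BNC2 siRNA, and the part of this was not tested. With counts of both strands, the same 7 members were called.

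**Figure D5:**
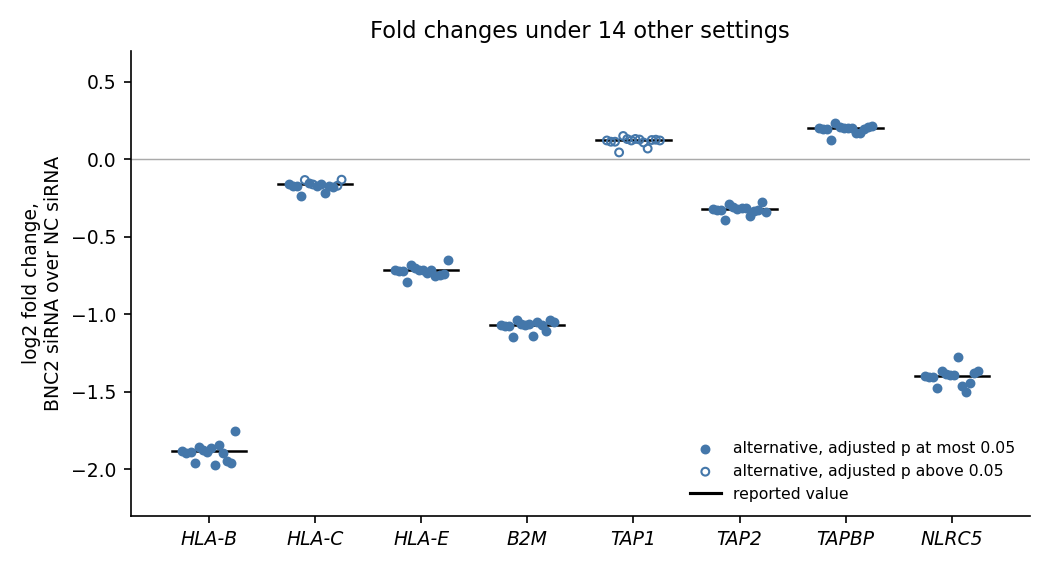
Log2 fold change (BNC2 siRNA over NC siRNA) of the 8 class I pathway genes tested, as reported (black line) and under 14 other settings (points, filled where the adjusted p was at most 0.05). Only HLA-C has both filled and open points, and TAP1 has open points throughout.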

How the data were processed

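RNA-seq of BT549 cells comprised 6 libraries, whose group and replicate number were taken from the labels. The methods call the replicates biological, and the labels do not say whether they were separate cultures, so p-values measure the spread between these libraries. The labels name Lipofectamine as the reagent, the methods RNAiMax for siRNAs. The authors aligned single-end reads to hg19 with STAR 2.6.1d and an iGenomes UCSC annotation and deposited raw read counts per gene, which equal the reverse-strand column of the library tables in all 23346 genes. Reads mapping to several places (8.68% to 9.71%) or to no gene entered neither library sizes nor tests, so reads of near-identical HLA genes are missing rather than split.

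The 12186 genes above 1 CPM in 3 or more libraries were scaled with TMM (factors 0.972 to 1.04) and compared with edgeR 4.0.16 in R 4.3.3 (quasi-likelihood test, no replicate block, Benjamini-Hochberg adjusted p of at most 0.05). CPM values are TMM-normalised. The standard error is the log2 fold change divided by the square root of the F statistic. The alternatives were the likelihood ratio test used by the study, DESeq2 1.42.0, its size factors, scaling by totals only, filterByExpr or no filter on low counts, both-strand counts, a replicate block and leaving out each library. The code was tested on simulated data.

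Positions and transcript lengths come from GENCODE release 44 on GRCh37, the assembly of hg19, and upstream sequences from RefSeq on GRCh38.p14. The text names all 9 members, up to 2 rises and 2 falls of each list among genes called with at least 5 CPM in the higher group, a fixed set of pathway genes and list members that were not called. CANX, HSPA5, BCAP31, PSME2, the mesenchymal markers, CD14, CORO1A, CSF1R and the ratios of gene pairs were added after their values were seen. The members and lists were chosen with earlier results of these data known. A few genes are not reported by name here, though list counts include them.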

Additional observations from a re-analysis of the deposited data

Results flagged for a closer look

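ERAP1 was marked for a closer look because reads on the strand opposite to the gene, which the tested counts leave out, were higher in all 3 BNC2 siRNA libraries than in all 3 NC siRNA libraries. They stood at 31.8, 33.2 and 27.7 CPM with NC siRNA and at 42.8, 40.4 and 43.0 CPM with BNC2 siRNA, a mean of 42.1 CPM against 30.9 CPM. They made up 39.9% of the reads of both strands at the gene. In GENCODE on GRCh37, CAST overlaps ERAP1 on the opposite strand by 18786 bases and a pair of lncRNA genes by 2418 and 1223 bases, and their part in these reads was not tested. With counts of both strands the log2 fold change of ERAP1 was 0.05 (adjusted p = 0.566 in edgeR's quasi-likelihood test).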

How the results depend on the processing

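Of 532 comparisons (38 named genes under 14 alternatives), 515 kept their direction and their side of the threshold, 4 lost the call (all of HLA-C) and 13 reversed, all in genes that were not called. PSMB8 reversed to -0.002 with DESeq2 and with its size factors, to -0.071 with total counts only, and without NC siRNA replicate 1 or 3 or BNC2 siRNA replicate 2 or 3, in a range of -0.065 to 0.095 with 1 library left out. PDIA3 (-0.030) and ERAP1 (-0.067) reversed with total counts only, ERAP1 also without NC siRNA replicate 2 or 3 or BNC2 siRNA replicate 3 (range -0.086 to 0.085), and PSMB5 without BNC2 siRNA replicate 3 (0.009). Peptide loading partners called higher numbered 3 with total counts only, not 5. Interferon receptor and JAK-STAT genes called higher numbered 2 with total counts only, and 2 to 4 with 1 library left out (2 without NC siRNA replicate 3), not 4. NKG2D ligands called higher numbered 1 without the filter on low counts and with filterByExpr, and 0 to 1 with 1 library left out (1 without NC siRNA replicate 1 or BNC2 siRNA replicate 3), not 0. Without the filter, 3 NKG2D ligands (not 1) and 1 class II gene (not 0) were called lower. Among genes named in the text beyond the 38, HSPA5, BCAP31 and VIM lost their call with total counts only (adjusted p = 0.097, 0.053 and 0.090), VIM also without NC siRNA replicate 2, and MICA was called in 4 alternatives. ULBP3 ranged from -0.03 to 0.10 and HLA-DOB from -0.37 to 0.02, without a call. The cause was not tested.

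Same-numbered libraries did not deviate together (correlations of -0.21, -0.08 and -0.13). With a replicate block, 8400 genes were called, not 8879, and 6 members, not 7, since HLA-C had an adjusted p of 0.064 at a log2 fold change of -0.16. HLA-B and NLRC5 in the knockdown rest on under 100 reads a library, and HLA-F was too low to compare.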
